A study of Mus musculus with 13 samples.

Results

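Integrins are the receptors by which microglia, the resident macrophages of the brain, hold to matrix, to other cells and to opsonised material. The 10 integrin subunit genes described here were chosen by name (Itgax, Itgam, Itgal, Itgb2, Itgb1, Itgav, Itgb5, Itga6, Itga4 and Itga5) out of 19737 genes in a table of expression values from 13 mouse microglia libraries. All 10 were in the table. They and the gene lists below were chosen with earlier results of these data known. The shares of all genes set beside their counts are therefore given for scale only. The values are FPKM, fragments scaled to gene length and to library depth, which allows a rough comparison of levels between genes. Their sums differed between libraries, from 123352 to 135807 in wild type and from 139019 to 170775 in the 5xFAD groups. Comparisons between libraries therefore depend on how they are scaled.

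The libraries fall into 4 groups and were made by ribosomal RNA-depleted total RNA sequencing. Wild type mice given an adeno-associated virus of the PHP.eB capsid carrying EGFP, a fluorescent protein, gave 3 libraries, and 5xFAD mice given the same EGFP virus gave 2. A further 4 libraries came from 5xFAD mice given PHP.eB virus carrying circPOLR2A, a circular RNA, and 4 came from 5xFAD mice labelled as lacking PKR, the kinase activated by double-stranded RNA, for which the labels name no virus. By its title, the series concerns the use of double-stranded circular RNA, sent to nerve cells, as a treatment, with microglia as the readout. 5xFAD mice carry mutant human amyloid precursor protein and presenilin transgenes under a neuronal promoter. The circPOLR2A labels are (9,10), (9,11), (9,12) and (9,13) in the 4 libraries, while the series design names (9,10) for the whole group, and they were treated as 1 group by title. Library names are given for the PKR knockout libraries alone, and only these have no virus named. Handling, virus and the knockout therefore cannot be told apart in any comparison with that group. Age, sex, the method of isolating the cells and whether each library is 1 animal are not stated in the labels, so p-values measure the spread between these libraries, which may in part be technical.

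Each integrin is a pair of 1 alpha and 1 beta chain, and the pair sets the ligand. The β2 chain (Itgb2, CD18) pairs with CD11a (Itgal), CD11b (Itgam), CD11c (Itgax) and CD11d (Itgad) on leukocytes, and the CD11b pair, complement receptor 3, binds fragments of complement C3 and fibrinogen and is a standard microglial marker. CD11c marks a state of microglia found near amyloid plaques. The β1 chain (Itgb1) pairs with α4, α5 and α6, which bind VCAM1 and fibronectin, fibronectin, and laminins in that order, and αv (Itgav) pairs with β5 (Itgb5) to bind vitronectin and, on macrophages, to take up dying cells.

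The stretches just before the transcription starts of Itgam and Itgax are shown because the 2 genes lie side by side on chromosome 7, share the partner Itgb2 and moved differently. Both are on the plus strand of build GRCm38 (RefSeq starts), 250 bases each and 5′ to 3′, at chr7:128062390-128062639 for Itgam and chr7:128129300-128129549 for Itgax.
Itgam: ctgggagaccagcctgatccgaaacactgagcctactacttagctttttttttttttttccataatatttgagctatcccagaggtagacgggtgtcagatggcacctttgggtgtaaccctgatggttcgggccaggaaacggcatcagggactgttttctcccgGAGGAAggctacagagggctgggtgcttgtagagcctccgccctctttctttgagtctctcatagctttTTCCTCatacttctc
Itgax: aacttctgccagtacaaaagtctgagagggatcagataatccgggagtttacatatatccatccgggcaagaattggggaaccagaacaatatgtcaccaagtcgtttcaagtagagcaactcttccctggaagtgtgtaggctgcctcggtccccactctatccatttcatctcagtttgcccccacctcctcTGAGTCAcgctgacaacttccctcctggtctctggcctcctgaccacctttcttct
Capitals mark the letters searched on both strands. In Itgam these are GAGGAA, the core bound by PU.1, the transcription factor of myeloid cells, 84 to 79 bases before the start, and its reverse complement TTCCTC 15 to 10 bases before it. In Itgax they are TGANTCA, the AP-1 site, 56 to 50 bases before the start. GAGGAA was present in 23.3% of 32851 promoter windows of this length and TGANTCA in 6.7%. Of 7 integrin promoters with a RefSeq entry, 4 held GAGGAA (Itgam, Itgav, Itgb1 and Itga5) and 1 held TGANTCA. The third pattern searched, CANGTG, takes in E-boxes of more than 1 kind of factor. It was in 39.5% of windows and in 1 of the 7, that of Itgb5. The matches there read CAAGTG and CACCTG, the second being the reverse complement of CAGGTG.

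Depth, recovered from the steps between low FPKM values, was 45.1 M to 69.8 M fragments per library. Every PKR knockout library was deeper (57.63 M or more) than every other library (54.85 M or fewer), so depth and the knockout cannot be told apart. Each integrin rested on 90 fragments or more in every library, with a counting error of at most 10.6% for Itgal, 5.81% for Itga4, 4.78% for Itgax and 3.21% or less for the others. Eif2ak2, the gene of PKR, stood at 3.31 to 4.61 FPKM in the PKR knockout libraries, below the 6.49 to 8.11 FPKM of every other 5xFAD library but overlapping the wild type range of 4.14 to 5.23 FPKM. The labels do not state which exons were deleted, so these values do not check the knockout, and the group is called by its label. All 14 microglia markers were present in each library and summed to 3778 to 8137 FPKM. The wild type replicate 3 stood apart from its group, with a microglia sum of 3778 FPKM against 5924 and 6176 FPKM and an oligodendrocyte sum (8 genes) of 1623 FPKM against 365 and 405 FPKM. The integrin and list calls against wild type are therefore also given without it where it moves them. It moved marker calls too: without it 3 of 4 neuron and 4 of 8 oligodendrocyte markers tested were raised in 5xFAD EGFP (0 and 0 with it), and 4, 4 and 6 of 14 microglia markers were lowered in EGFP, circular RNA and PKR knockout (1, 1 and 2 with it). Lymphocyte markers (16 genes) summed to at most 5.69 FPKM in any library, with Ms4a1 at 0 in both 5xFAD EGFP libraries.

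**Figure D1:**
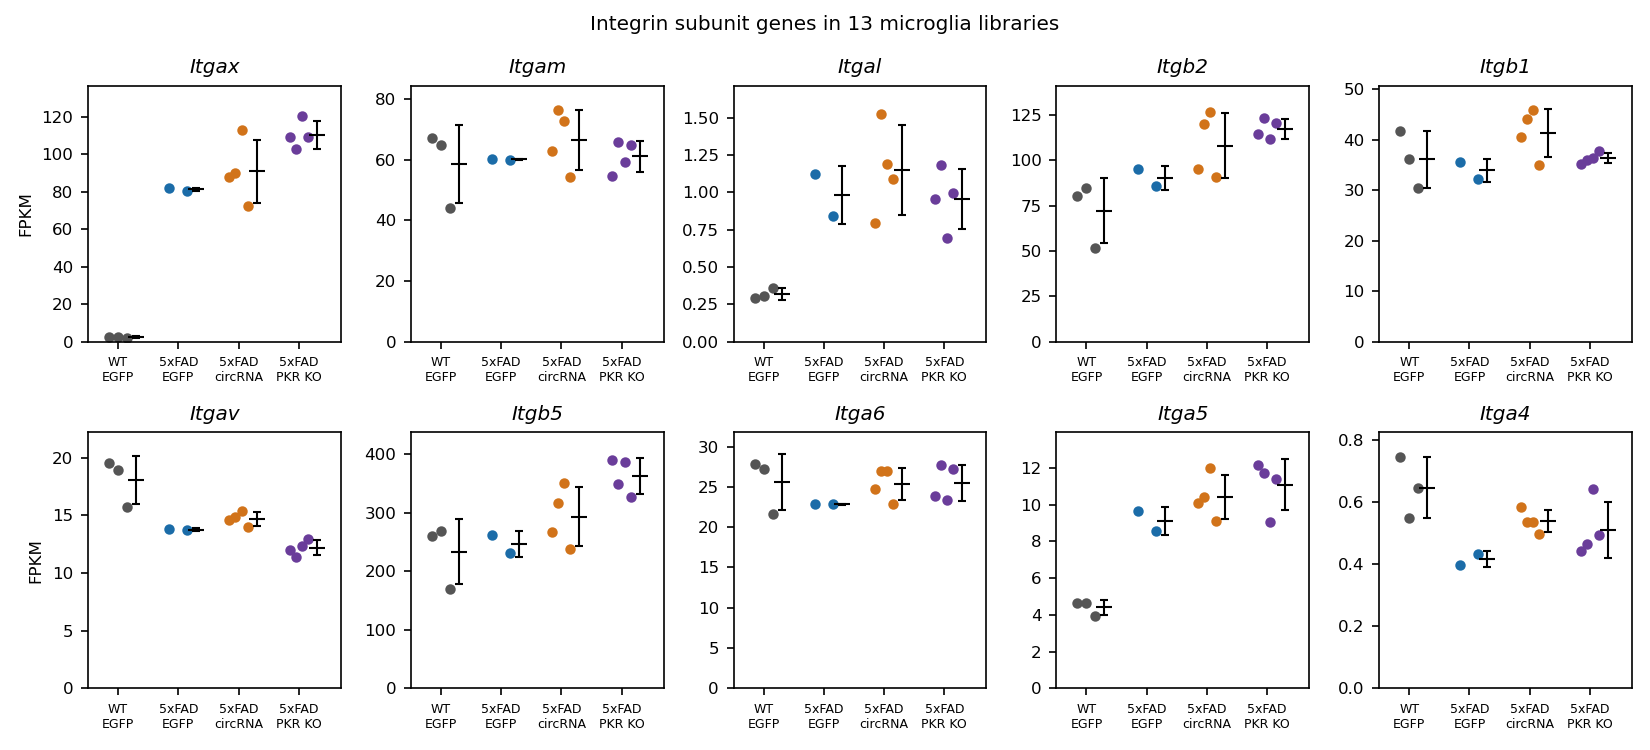
FPKM (vertical axes, each from 0) of the 10 integrin genes in 13 libraries, grouped on the horizontal axes; points are libraries, and the short line with a bar is the group mean ± SD (n = 3, 2, 4 and 4). Itgax lies at 1.81 to 2.77 FPKM in wild type and at 72.5 to 120.5 FPKM in the 5xFAD groups, Itga5 and Itgal are also higher in every 5xFAD library, and Itgav is lower in every one.

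Itgb5 was the highest of the 10 in every group, at 233 to 363 FPKM by group mean, and Itgal and Itga4 were the lowest, at 1.15 FPKM or less. In wild type microglia the order of mean levels was Itgb5, Itgb2, Itgam, Itgb1, Itga6, Itgav, Itga5, Itgax, Itga4 and Itgal, and of neighbours in that order the ranges of Itgb2 and Itgam alone overlapped. In the 5xFAD EGFP libraries Itgax had moved from the eighth place to the third, behind Itgb5 and Itgb2, and the ranges of no neighbours overlapped among these 2 libraries. With the circular RNA the ranges of Itgb2 and Itgax overlapped, as did those of Itgax and Itgam. In PKR knockout the ranges of Itgb2 and Itgax overlapped, and so did those of Itgav and Itga5. The place of Itgax depends on how Itgam is counted: with the fragments of an overlapping gene added to Itgam, Itgax was 4th with EGFP and with the circular RNA and 3rd in PKR knockout.

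Of the 10 genes 8 passed the filter for testing, a mean of 1 FPKM over all libraries, and 10817 genes were tested in all with limma on log2(FPKM + 1). In 5xFAD EGFP against wild type 3 of the 8 were called at an adjusted p under 0.05, where 14.0% of all genes were called: 2 were raised (7.65% of all genes) and 1 was lowered (6.35%). With the circular RNA against wild type 4 of 8 were called (25.8% of all genes), 3 raised (17.8%) and 1 lowered (8.05%). In PKR knockout against wild type 5 of 8 were called (37.0% of all genes), 4 raised (17.5%) and 1 lowered (19.4%). None of the 8 was called with the circular RNA against EGFP (0% of all genes), in PKR knockout against EGFP (0.0832%) or with the circular RNA against PKR knockout (6.19%). These comparisons share libraries and are not independent.

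Unadjusted p-values under 0.05 fell to 3, 4 and 5 of the 8 in the 3 comparisons with wild type, in the order above, beside 26.2, 36.7 and 46.7% of all genes. Among 5xFAD groups they fell to 0 of 8 for the circular RNA against EGFP (4.83% of all genes), 2 for PKR knockout against EGFP (13.0%) and 2 for the circular RNA against PKR knockout (25.5%). The groups did not overlap for 4, 4 and 5 of the 8 against wild type, beside 37.6, 28.2 and 40.9% of all genes. They did not overlap for 2 of 8 with the circular RNA against EGFP (19.3% of all genes), 5 in PKR knockout against EGFP (34.8%) and 1 with the circular RNA against PKR knockout (19.5%). The median log2 change over the 8 against wild type was 0.08, 0.27 and 0.37 in EGFP, circular RNA and PKR knockout, beside -0.03, 0.02 and -0.05 over all genes.

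Itgax (ENSMUSG00000030789, chromosome 7, 128129547 to 128150657, plus strand, GRCm38), the CD11c chain, changed most of the 10. Its level was 2.47, 2.77 and 1.81 FPKM in the wild type libraries. It was 81.9 and 80.7 FPKM in 5xFAD EGFP, 88.1, 90.2, 113 and 72.5 FPKM with the circular RNA, and 109, 103, 120.5 and 109 FPKM in PKR knockout. All 10 of the 5xFAD libraries lay far above all 3 wild type libraries. The ratio of mean FPKM to wild type was 34.5 in 5xFAD EGFP, 38.7 with the circular RNA and 46.9 in PKR knockout.

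On the scale used for tests, log2(FPKM + 1), Itgax rose by 4.63 (SE 0.17, limma adjusted p = 5.12e-09) in 5xFAD EGFP against wild type. The change was 4.77 (SE 0.14, limma adjusted p = 4.10e-10) with the circular RNA and 5.06 (SE 0.14, limma adjusted p = 1.99e-10) in PKR knockout. Among the 5xFAD groups, Itgax was 0.44 log2 units higher in PKR knockout than with EGFP (95% interval 0.09 to 0.78), with all 4 knockout libraries above both EGFP libraries, but the adjusted p was 0.272 (unadjusted p = 0.0169, limma). It passed with only these 2 groups in the model (limma adjusted p = 0.0352) and with array weights (0.0335). Marker sums moved with it without overlap: oligodendrocyte sums were 678 to 720 FPKM in EGFP and 232 to 391 in PKR knockout, and microglia sums 5531 to 6097 and 6773 to 6977 FPKM. With the neural and vascular markers in the model the Itgax difference was 0.38 (limma adjusted p = 0.233). The circular RNA differed from EGFP by 0.14 log2 units (95% interval -0.20 to 0.49, limma adjusted p = 0.779) and from PKR knockout by -0.29 (95% interval -0.57 to -0.01, limma adjusted p = 0.178). Fewer cells of a type and less RNA per cell cannot be told apart in RNA from bulk microglia.

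Dendritic cells also carry CD11c. The 8 dendritic cell markers summed to 102 to 165 FPKM in wild type and 94.7 to 132 FPKM in the 5xFAD groups, which overlapped. This sum includes Siglech, also on the microglia list, and the integrin Itgae. The 6 of them on no other list summed to 5.88 to 9.52 FPKM in wild type and 1.79 to 3.68 FPKM in the 5xFAD groups, a sum made up mostly of Cd209a (6.51 FPKM by mean in wild type and 1.51 to 2.28 FPKM in the 5xFAD groups). Clec9a, a marker of cross-presenting dendritic cells, stood at 0.0794 FPKM in wild type and 0.0763 to 0.109 FPKM in the 5xFAD groups. Flt3, Zbtb46, Xcr1 and Ccr7 are not given singly here. The part of such cells in the Itgax difference was not tested. Markers of border macrophages (10 genes) summed to 73.8 to 115 FPKM in wild type and 37.4 to 57.7 FPKM in the 5xFAD groups.

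Itgam (ENSMUSG00000030786, chromosome 7, 128062640 to 128118491, plus strand), the CD11b chain, did not pass the threshold in any of the 6 comparisons. It was listed at 67.0, 64.8 and 43.9 FPKM in wild type, 60.2 and 59.8 in 5xFAD EGFP, 62.7, 76.2, 72.5 and 54.3 with the circular RNA, and 54.7, 65.6, 59.2 and 64.9 in PKR knockout. Of the 10 5xFAD libraries 8 lay within the wild type range, and circular RNA replicates 2 and 3 lay above it. The 95% intervals of its log2 change ran from -0.34 to 0.46 in 5xFAD EGFP against wild type, from -0.14 to 0.53 for the circular RNA group and from -0.26 to 0.42 for PKR knockout. The sign turned with scaling: with each library rescaled to the same FPKM sum the changes were -0.11, -0.10 and -0.15.

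The level of Itgam is uncertain for another reason. The annotation has a second gene, Gm49368, on the same strand from 128062683 to 128128160, which shares exons with Itgam and is listed at 46.4 to 54.4 FPKM by group mean. Low values of genes that share exons with a listed gene on the same strand were whole fragments in 52.6% of cases, against 93.5% for genes with no exon overlap, so fragments of such genes appear to have been divided between them. With the Gm49368 fragments added, Itgam stood at 103, 106, 118 and 110.1 FPKM in the 4 groups in the order above. The ratio of Gm49368 to Itgam was 0.785 to 0.845 across the 13 libraries.

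Itgb2 (ENSMUSG00000000290, chromosome 10, 77530252 to 77565708, plus strand), the shared partner, was at 80.5, 84.5 and 51.5 FPKM in wild type and at 95.1 and 85.7 in 5xFAD EGFP. It was at 95.3, 119.6, 126.6 and 90.7 FPKM with the circular RNA and at 114, 123, 111 and 120.3 in PKR knockout. Every 5xFAD library lay above every wild type library, though the lowest 5xFAD value was close to the highest wild type one. The rise was 1.63-fold in PKR knockout (log2 change 0.72, SE 0.17, limma adjusted p = 0.00588) and 1.497-fold with the circular RNA (0.59, SE 0.17, limma adjusted p = 0.0220). In 5xFAD EGFP the ratio of means was 1.25 and the change did not pass (0.35, 95% interval -0.09 to 0.79, limma adjusted p = 0.303).

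The circular RNA call for Itgb2 was lost with each library rescaled to the same FPKM sum (0.31, limma adjusted p = 0.111), after quantile normalization (0.17, 0.405), with array weights (0.32, 0.0920) and with only the 2 groups in the model (0.59, 0.0988). It also rested on single libraries: without wild type replicate 3 the change was 0.37 (limma adjusted p = 0.0649), without circular RNA replicate 2 it was 0.54 (0.0602) and without replicate 3 it was 0.51 (0.0575). In PKR knockout the rise without wild type replicate 3 was 0.50 (limma adjusted p = 0.0134), but it did not pass after quantile normalization (0.22, limma adjusted p = 0.239) or with the level of neural and vascular markers in the model (0.41, limma adjusted p = 0.0663).

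Itgal (ENSMUSG00000030830, chromosome 7, 127296260 to 127335138, plus strand), the CD11a chain of LFA-1 that lymphocytes carry, was low throughout. Its values were 0.290, 0.307 and 0.362 FPKM in wild type, 1.12 and 0.843 in 5xFAD EGFP, 0.794, 1.52, 1.19 and 1.09 with the circular RNA, and 0.958, 1.19, 0.692 and 0.993 in PKR knockout. Although scarce, it was higher in each of the 10 5xFAD libraries than in any wild type one, and its mean was 3.07, 3.60 and 3.00 times that of wild type. Its mean over all libraries was below the 1 FPKM required for the main test, so it was tested only in the fit without that filter, over 18291 genes. There it rose by 0.58 in 5xFAD EGFP (limma adjusted p = 0.0228), 0.69 with the circular RNA (limma adjusted p = 0.00181) and 0.56 in PKR knockout (limma adjusted p = 0.00421), in comparisons where 10.4, 19.5 and 31.1% of genes were called without the filter. The 5xFAD EGFP call was lost without wild type replicate 1 (limma adjusted p = 0.0612) and without either 5xFAD EGFP library (0.163 and 0.0746). Lymphocyte markers summed to 3.63 to 5.69 FPKM in wild type and 2.62 to 5.39 FPKM in the 5xFAD libraries, most of it Cd79b, whose mean was 3.12 FPKM in wild type and 2.11 to 2.74 in the 5xFAD groups. Of the 16, named here after their values were seen, 3 were higher in each 5xFAD library than in any wild type one, as were 8.70% of the 18291 genes with a value. These were Cd3e, a chain of the T cell receptor complex (0.00514 to 0.0146 FPKM in wild type, 0.0232 to 0.107 in 5xFAD), the T cell kinase Lck (0.0542 to 0.0744 and 0.0933 to 0.210) and Nkg7 of cytotoxic lymphocytes (0 to 0.0459 and 0.0614 to 0.351). Klrd1, a natural killer cell receptor chain, was lower in each (0.589 to 1.07 and 0 to 0.354), as were 6.76% of these genes, and the others overlapped. The part of lymphocytes in the Itgal rise was not tested.

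**Figure D2:**
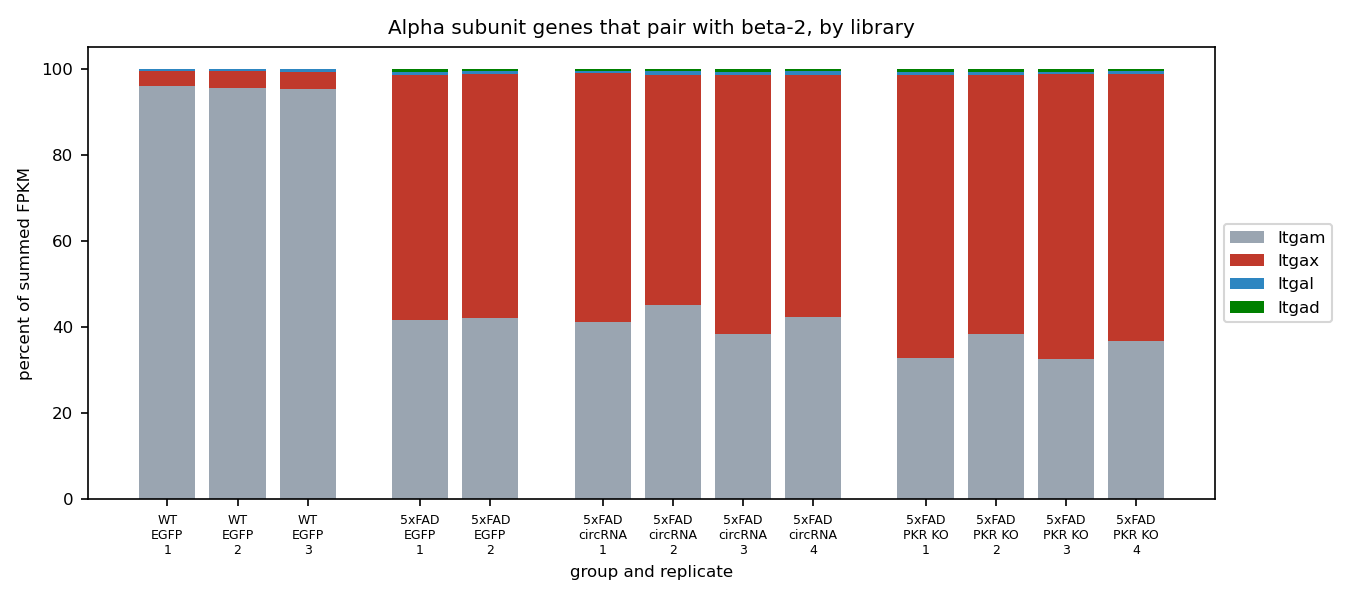
Percent of the summed FPKM of Itgal, Itgam, Itgax and Itgad (vertical axis) taken by each gene, in a stacked bar for each of the 13 libraries (horizontal axis, by group and replicate). Itgam fills 95.2 to 95.9% of each wild type bar, while Itgax fills 53.4 to 66.2% of each 5xFAD bar.

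Because the alpha chains share 1 beta partner, the make-up of the alpha pool was compared within each library, which does not depend on how libraries are scaled. Itgax made up 3.85 ± 0.28% (SD, n = 3) of the summed FPKM of Itgal, Itgam, Itgax and Itgad in wild type. Its share was 56.8 ± 0.02% (SD, n = 2) in 5xFAD EGFP, 56.9 ± 2.78% (SD, n = 4) with the circular RNA and 63.5 ± 2.91% (SD, n = 4) in PKR knockout. As listed, Itgax was below Itgam in every wild type library and above it in every 5xFAD library, with Itgam at 41.9, 41.7 and 35.2% by mean in those 3 groups against 95.5% in wild type.

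The share of the circular RNA libraries (53.4 to 60.0%) lay below that of all 4 PKR knockout libraries (60.2 to 66.2%), a difference in means of -6.66 percentage points. An exact two-sided permutation test gave p = 0.0286 for this comparison, the smallest that 4 against 4 libraries can give, and 0.0571 after adjustment over 6 comparisons of the share. The circular RNA group against wild type and PKR knockout against wild type, at 53.0 and 59.7 points, also reached 0.0286 (exact permutation test, adjusted p = 0.0571), the smallest possible in each. With 2 EGFP libraries the smallest p was 0.1 against wild type, which was reached (52.9 points), and 0.0667 against the other 5xFAD groups. PKR knockout was 6.78 points above EGFP (exact permutation p = 0.133) and the circular RNA 0.12 points above it (exact permutation p = 1). The design could not bring any of these below 0.05 after adjustment.

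With the Gm49368 fragments added to Itgam, the Itgax share was 2.23, 42.9, 42.9 and 49.6% in the 4 groups. Itgam then stood above Itgax in 8 of the 10 5xFAD libraries, all but PKR knockout replicates 1 and 3, so the order of the 2 genes turned, and the circular RNA group differed from PKR knockout by -6.67 points, with overlapping ranges (exact permutation test, adjusted p = 0.114). The alpha pool as a whole grew faster than its beta partner: the 4 alpha genes summed to 0.856 times Itgb2 in wild type and to 1.59, 1.48 and 1.49 times Itgb2 in 5xFAD EGFP, circular RNA and PKR knockout. Itgam was at 81.8% of Itgb2 in wild type and at 52.1% in PKR knockout, with no overlap between any 5xFAD library and wild type. These ratios are given as descriptions.

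The genes around Itgam and Itgax on chromosome 7 were examined next, since they sit in 1 cluster. In order along the plus strand these are Trim72, Itgam, Gm49368, Itgax and Itgad, and Cox6a2, a subunit of cytochrome oxidase known from heart and skeletal muscle, lies on the minus strand within the span of Itgad. Cox6a2 was at 0.519 ± 0.153 FPKM (SD, n = 3) in wild type and at 16.3 ± 1.38 (SD, n = 2), 20.8 ± 8.46 (SD, n = 4) and 21.4 ± 5.19 FPKM (SD, n = 4) in 5xFAD EGFP, circular RNA and PKR knockout. It rose by 3.51, 3.77 and 3.86 log2 units (limma adjusted p = 1.11e-05, 6.09e-07 and 4.13e-07). It passed the filter only through the 5xFAD groups, and in the fit without the filter the adjusted p was 9.57e-05, 7.45e-06 and 4.65e-06 (limma). Itgad, the CD11d chain, was at 0.0611 ± 0.0109 FPKM (SD, n = 3) in wild type and 0.956 ± 0.0956 (SD, n = 2), 1.09 ± 0.387 (SD, n = 4) and 1.31 ± 0.190 FPKM (SD, n = 4) in the same 5xFAD groups, too low for the main test. Trim72, also below the filter, was at 0.117 ± 0.0534 FPKM (SD, n = 3) in wild type and 0.426 ± 0.0019 (SD, n = 2), 0.458 ± 0.217 (SD, n = 4) and 0.469 ± 0.107 FPKM (SD, n = 4) in the 5xFAD groups, all of whose libraries lay above wild type. The counting program's setting for strand is not given in the sources used here, so opposite-strand overlaps such as Cox6a2 with Itgad are uncertain, although low values of genes with opposite-strand overlap alone were whole fragments in 94.9% of cases.

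**Figure D3:**
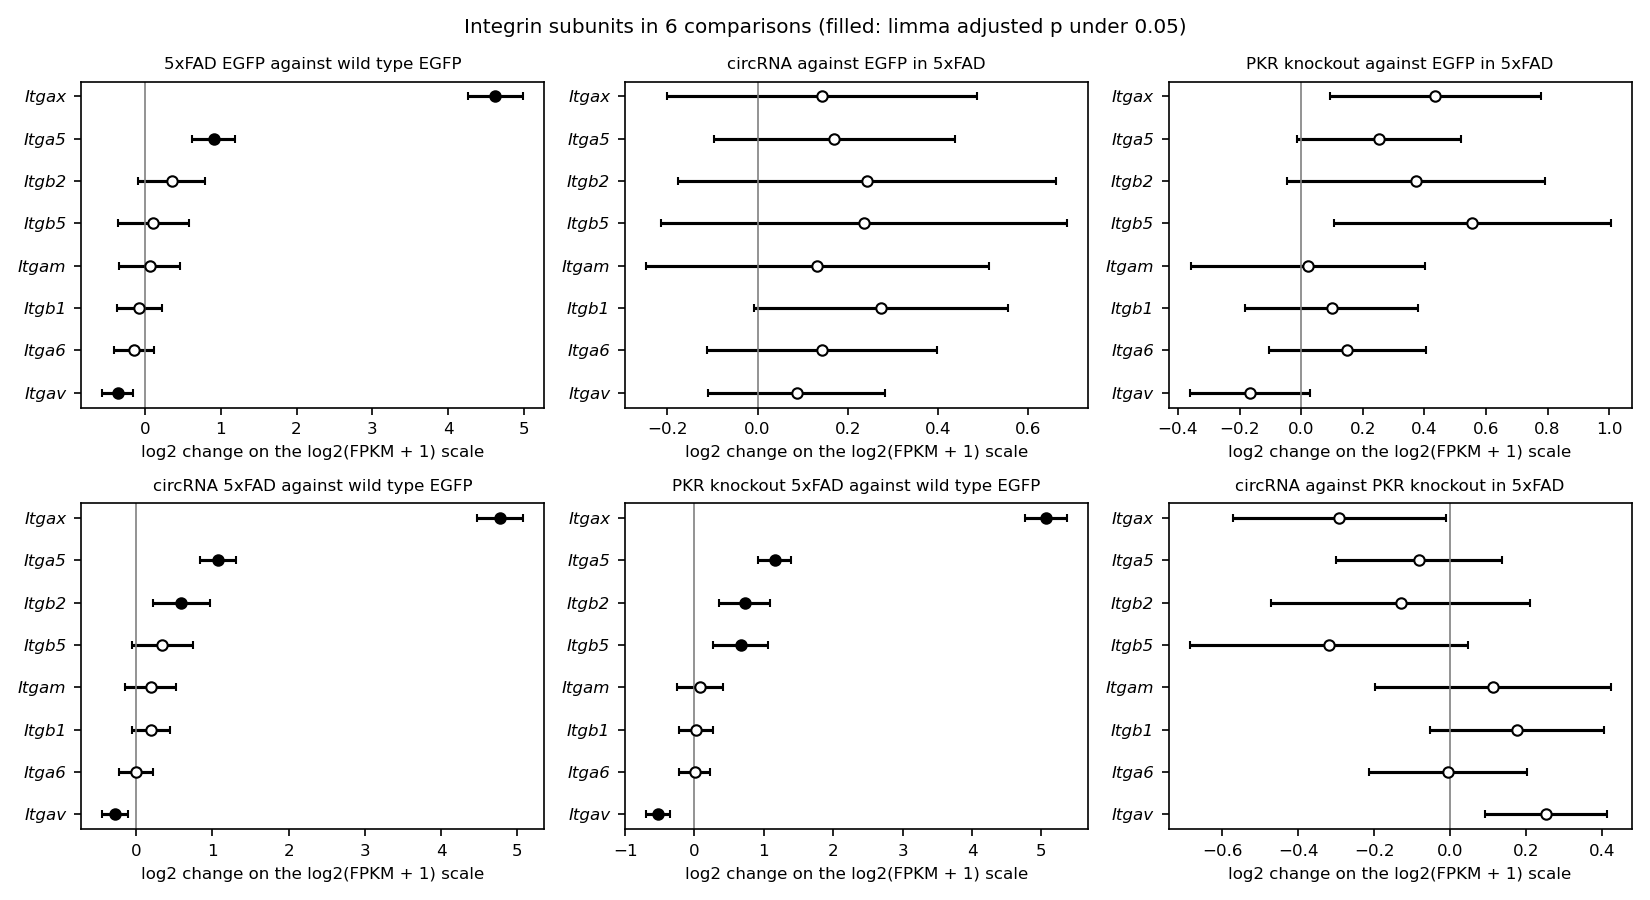
Log2 change (horizontal axes, log2(FPKM + 1) scale, with a different range in each panel) of the 8 tested integrins in 6 comparisons, with 95% intervals; filled points have a limma adjusted p under 0.05. Itgax, Itga5 and Itgav are filled in each comparison with wild type, Itgb2 in 2 of them and Itgb5 in 1, and no point is filled between 5xFAD groups.

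Of the fibronectin, laminin and VCAM1 receptors, Itga5 passed the test against wild type and its partner Itgb1 did not. Itga5 (ENSMUSG00000000555, chromosome 15, 103344286 to 103366763, minus strand), the α5 chain of the main fibronectin receptor, was at 4.62, 4.67 and 3.91 FPKM in wild type. It stood at 9.64 and 8.58 FPKM in 5xFAD EGFP, at 10.1, 10.4, 12.0 and 9.10 with the circular RNA, and at 12.2, 11.7, 9.07 and 11.4 in PKR knockout. Every 5xFAD library was above every wild type library, and the 5xFAD groups overlapped one another. The mean was 2.07, 2.36 and 2.52 times the wild type mean in those groups, with log2 changes of 0.90 (SE 0.13, limma adjusted p = 0.000727), 1.07 (SE 0.11, limma adjusted p = 2.07e-05) and 1.16 (SE 0.11, limma adjusted p = 8.00e-06). The rises of Itga5 and of Itgax against wild type passed the threshold under each of the alternatives run, those that left out a library included.

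Itgb1 (ENSMUSG00000025809, chromosome 8, 128685654 to 128733200, plus strand), the β1 chain that α5 needs, was at 41.8, 36.1 and 30.5 FPKM in wild type and 35.6 and 32.3 in 5xFAD EGFP. It was at 40.6, 44.0, 45.8 and 35.0 FPKM with the circular RNA and at 35.3, 36.0, 36.5 and 37.8 in PKR knockout. The groups overlapped in all 6 comparisons and none passed. The 95% intervals of its log2 change against wild type ran from -0.37 to 0.22 in 5xFAD EGFP, -0.05 to 0.44 with the circular RNA and -0.23 to 0.27 in PKR knockout.

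Itga6 (ENSMUSG00000027111, chromosome 2, 71745616 to 71858416, plus strand), a laminin receptor chain, was at 27.9, 27.2 and 21.6 FPKM in wild type, and its 5xFAD libraries lay between 22.8 and 27.7 FPKM, within the wild type range. It did not pass in any comparison as deposited, with 95% intervals against wild type of -0.42 to 0.12, -0.23 to 0.22 and -0.22 to 0.23 log2 units for EGFP, circular RNA and PKR knockout. Itga6 did pass as lowered after rescaling to the same sum in EGFP (-0.32, limma adjusted p = 0.0486) and with the circular RNA (-0.29, 0.0246), and with the circular RNA after quantile normalization (-0.25, 0.0332). The direction for Itga6 and Itgb1 in PKR knockout turned with scaling, and after quantile normalization they were -0.22 (limma adjusted p = 0.0474) and -0.28 (limma adjusted p = 0.00817). Within a library, Itga5 was 0.173 ± 0.008 (SD, n = 3) times Itga6 in wild type and 0.399 ± 0.032 (SD, n = 2), 0.410 ± 0.026 (SD, n = 4) and 0.435 ± 0.052 (SD, n = 4) times Itga6 in the 5xFAD groups, with no overlap with wild type.

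Itga4 (ENSMUSG00000027009, chromosome 2, 79255426 to 79333123, plus strand), the α4 chain by which leukocytes bind VCAM1, was at 0.745, 0.549 and 0.646 FPKM in wild type and 0.397 and 0.434 in 5xFAD EGFP. It was at 0.583, 0.537, 0.537 and 0.498 FPKM with the circular RNA and at 0.441, 0.464, 0.641 and 0.495 in PKR knockout. Both EGFP libraries were below every other library. Too low for the main test, it fell by 0.22 log2 units in 5xFAD EGFP against wild type in the fit without the filter (limma adjusted p = 0.0482), a call lost on leaving out wild type replicate 1 or 3 or either EGFP library (limma adjusted p = 0.0705 to 0.221). It did not pass in the other 5 comparisons, and its exons overlap those of Cerkl on the opposite strand.

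Itgav and Itgb5, the chains of the vitronectin receptor αvβ5, went in opposite directions in PKR knockout. Itgav (ENSMUSG00000027087, chromosome 2, 83724397 to 83806916, plus strand) was at 19.6, 18.9 and 15.7 FPKM in wild type, 13.8 and 13.7 in 5xFAD EGFP, 14.6, 14.9, 15.4 and 14.0 with the circular RNA, and 12.0, 11.4, 12.4 and 12.9 in PKR knockout. All 5xFAD libraries lay below all wild type libraries, and the 3 5xFAD groups did not overlap one another, with PKR knockout lowest and the circular RNA highest. Itgav fell by 0.36 log2 units in 5xFAD EGFP (SE 0.10, limma adjusted p = 0.0237), by 0.28 with the circular RNA (SE 0.08, limma adjusted p = 0.0232) and by 0.53 in PKR knockout (SE 0.08, limma adjusted p = 0.000328). The mean was 0.762, 0.813 and 0.674 times the wild type mean.

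The first 2 of these Itgav calls were lost on leaving out wild type replicate 1 or 2 (limma adjusted p = 0.0697 and 0.0643 for EGFP, 0.0818 and 0.0825 for the circular RNA). They were lost too without either EGFP library (limma adjusted p = 0.119 and 0.157) and without circular RNA replicate 1 or 4 (0.0524 and 0.0512). With only the 2 groups in the model they were lost as well (limma adjusted p = 0.236 for EGFP and 0.104 for the circular RNA). The PKR knockout fall held in each of its 16 alternatives (log2 change -0.75 to -0.43). Between the circular RNA and PKR knockout the difference was 0.25 log2 units (95% interval 0.09 to 0.41), with an unadjusted p of 0.00488 and a limma adjusted p of 0.0615. This difference passed with only the 2 groups in the model (limma adjusted p = 0.0394), with the markers in the model (0.0293) and with array weights (0.0048).

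Itgb5 (ENSMUSG00000022817, chromosome 16, 33829665 to 33949338, plus strand) was at 259.97, 269 and 169 FPKM in wild type and 262 and 231 in 5xFAD EGFP. It was at 266, 316, 351 and 238 FPKM with the circular RNA and at 389.9, 348, 386 and 327 in PKR knockout. The knockout libraries all lay above those of wild type and EGFP but overlapped the circular RNA group, and the first 3 groups overlapped. Against wild type the PKR knockout mean was 1.56-fold higher (log2 change 0.66, SE 0.18, limma adjusted p = 0.0138), while EGFP (0.11, 95% interval -0.36 to 0.58) and the circular RNA (0.35, 95% interval -0.05 to 0.74) did not pass, and their sign turned after quantile normalization (-0.36 and -0.23). Against EGFP the knockout was 0.56 log2 units higher (95% interval 0.11 to 1.00, unadjusted p = 0.0195, limma adjusted p = 0.283), and it passed with only the 2 groups in the model (0.0368) and with array weights (0.0280). The oligodendrocyte and microglia sums given for Itgax differed between the same libraries, and with the neural and vascular markers in the model the Itgb5 difference was 0.46 (limma adjusted p = 0.246).

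The rise of Itgb5 in PKR knockout against wild type was not called after quantile normalization (0.00, limma adjusted p = 0.996) or with the markers in the model (0.42, 0.133). It was called after rescaling to the same sum (0.43, limma adjusted p = 0.0369), after median-ratio scaling (0.77, 0.00394) and without wild type replicate 3 (0.45, 0.0418). Within a library, Itgb5 was 12.8 ± 1.81 (SD, n = 3) times Itgav in wild type, 17.9 ± 1.44 (SD, n = 2) in 5xFAD EGFP, 19.8 ± 2.65 (SD, n = 4) with the circular RNA and 29.9 ± 3.17 (SD, n = 4) in PKR knockout. The knockout libraries (25.2 to 32.4) did not overlap any other group in this ratio.

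**Figure D4:**
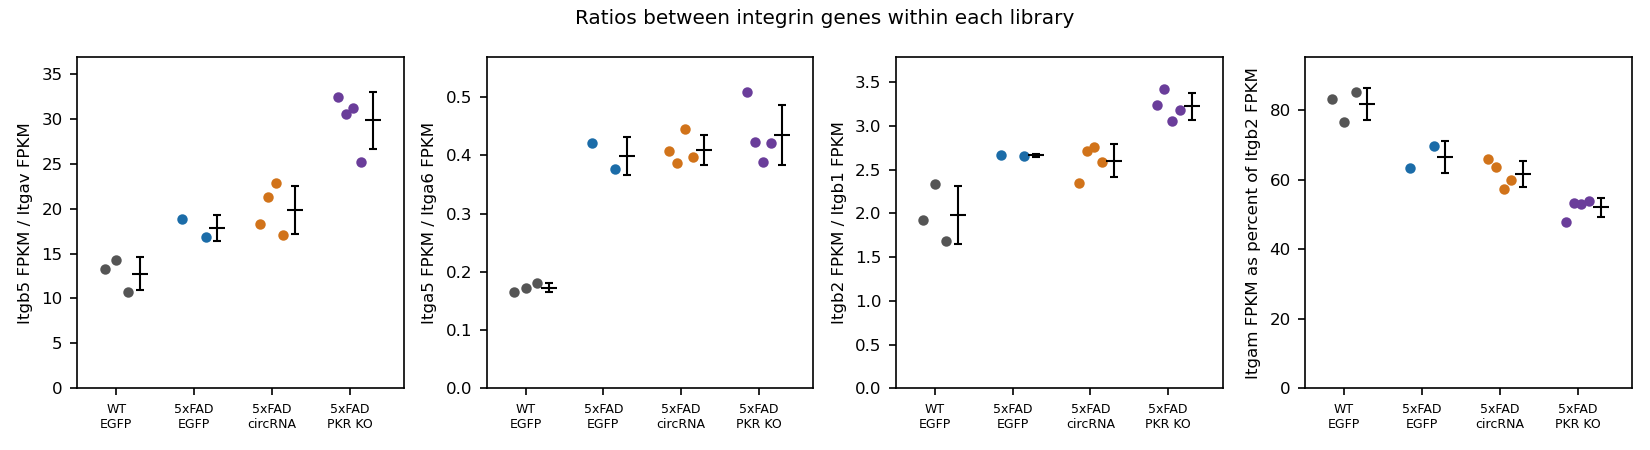
Ratios of FPKM between integrin genes within each library (vertical axes, from 0) by group; points are libraries and the line with a bar is the mean ± SD (n = 3, 2, 4 and 4). Itga5 over Itga6 separates wild type (0.166 to 0.181) from all 5xFAD libraries (0.376 to 0.510), and Itgb5 over Itgav is highest in PKR knockout (25.2 to 32.4).

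The level of several integrins followed the microglia marker sum among libraries of 1 group. In the circular RNA group, replicates 2 and 3 had microglia sums of 7501 and 8137 FPKM and oligodendrocyte sums of 316 and 327 FPKM. Replicates 1 and 4 had microglia sums of 6212 and 5369 FPKM and oligodendrocyte sums of 790.1 and 823 FPKM. Itgb2, Itgb5, Itgam, Itgb1, Itgax, Itga5, Itgav, Itga6 and Itgal were each higher in replicates 2 and 3 than in replicates 1 and 4. Itga4 was not. In wild type, replicate 3, with the lowest microglia sum, was also lowest for all of these genes but Itgal and Itga4. The part of this variation in the differences between groups was not tested beyond the fit with the markers in the model.

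**Figure D5:**
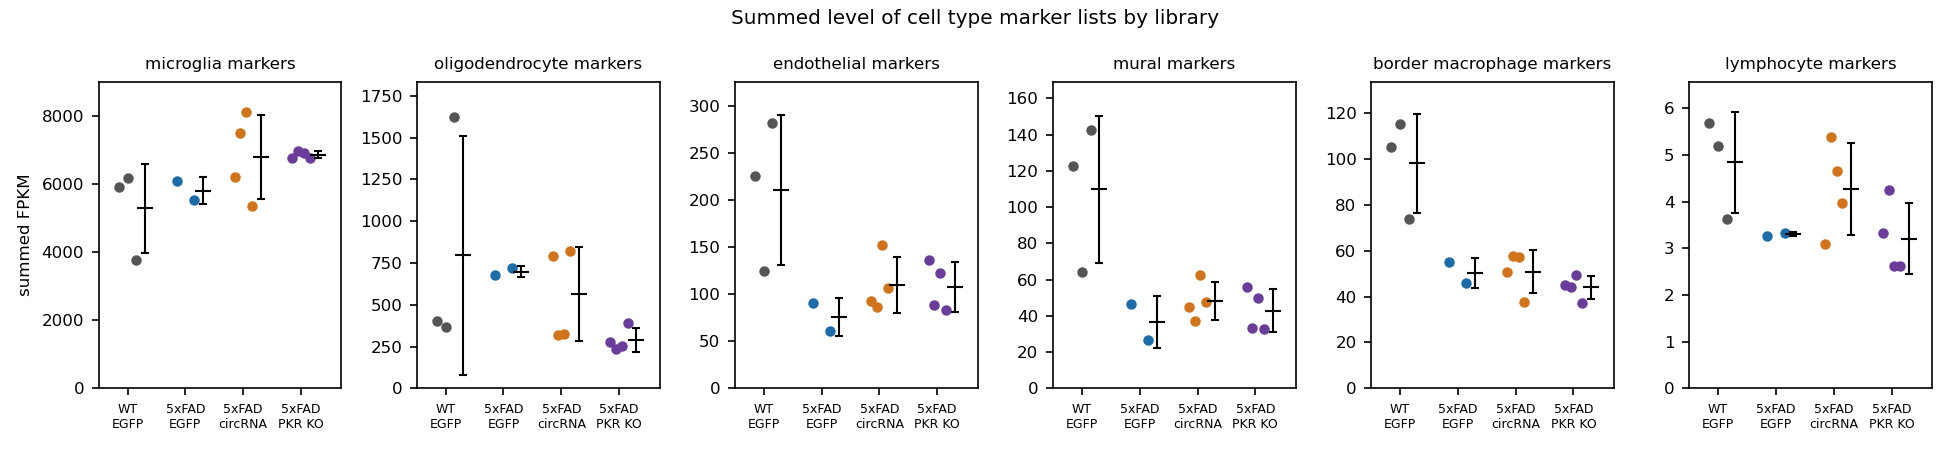
Summed FPKM (vertical axes, from 0) of cell type marker lists in each library by group; points are libraries and the line with a bar is the mean ± SD (n = 3, 2, 4 and 4). Wild type replicate 3 is the point at 3778 FPKM for microglia and 1623 FPKM for oligodendrocytes, and border macrophage sums are 73.8 to 115 FPKM in wild type and 37.4 to 57.7 FPKM in the other groups.

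A further 17 listed genes, 16 other integrin subunits and the integrin-like Itgbl1, were looked at beside the 10, and 6 passed the filter. Itgb3, the β3 chain that also pairs with αv, was the 1 that rose against wild type, from 8.08 ± 1.26 FPKM (SD, n = 3) to 13.9 ± 0.59 (SD, n = 2), 15.1 ± 1.72 (SD, n = 4) and 15.2 ± 1.12 (SD, n = 4). Its log2 changes were 0.72, 0.83 and 0.84 (limma adjusted p = 0.00334, 0.000149 and 0.000100). Itga9, the α9 chain that binds tenascin and osteopontin, fell from 14.2 ± 2.78 FPKM to 7.09 ± 0.14, 7.15 ± 0.94 and 6.77 ± 2.31, by 0.90, 0.89 and 1.00 log2 units (limma adjusted p = 0.0254, 0.00598 and 0.00222). Itga3 and Itga1, chains of laminin and collagen receptors, also fell in all 3 comparisons, from 1.98 and 1.99 FPKM to at most 0.933 FPKM by mean. Both passed the filter only through wild type, where they were high, and in the fit without the filter they were called in all 3 comparisons (limma adjusted p = 0.00387 to 0.0445). Itgb8 and Itgb4 passed in PKR knockout but not in the other comparisons with wild type, falling by 0.77 and 0.86 log2 units (limma adjusted p = 0.0199 and 0.0313). In the fit without the filter Itgb4, below 1 FPKM in PKR knockout, had an adjusted p of 0.0496 there (limma). None of the 6 was called between 5xFAD groups, where 0, 0.0832 and 6.19% of all genes were. Itgb8 and Itgb4 in PKR knockout, without wild type replicate 3, were at -0.53 and -0.50 (limma adjusted p = 0.0790 and 0.124) and Itga1 with the circular RNA at -0.38 (0.107), none of them called. Leaving out PKR knockout replicate 2 also ended the Itgb8 call (limma adjusted p = 0.0554), any 1 knockout library that of Itgb4 (0.0513 to 0.0719), and wild type replicate 1 or circular RNA replicate 1 or 2 that of Itga1 with the circular RNA (0.0694 to 0.0854). In EGFP the calls of Itga9, Itga3 and Itga1 were lost without wild type replicate 1 or either EGFP library (limma adjusted p = 0.0524 to 0.154), and that of Itga9 without wild type replicate 2 (0.0638), while Itgb3 kept its 3 calls whichever library was left out.

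Endothelial markers (10 genes) summed to 125 to 281 FPKM in wild type and 61.3 to 153 FPKM in the 5xFAD groups, and mural cell markers (10 genes) to 64.2 to 142 and 26.5 to 62.4 FPKM. The mural ranges did not overlap and the endothelial ranges overlapped at their ends, and the part of these cells in the falls of the subunits was not tested. Without wild type replicate 3 the counts raised and lowered became 1 and 3 in EGFP, 1 and 2 with the circular RNA and 1 and 3 in PKR knockout, against 1 and 3, 1 and 3, and 1 and 5 of the 6 with it. With Itga1, Itga3 and Itgb4 left out for their low group means, the counts were 1 and 1, 1 and 1, and 1 and 2 of 3. Over all genes 7.65, 17.8 and 17.5% were raised and 6.35, 8.05 and 19.4% lowered, and without the replicate 8.96, 15.01 and 15.3% were raised and 9.51, 8.81 and 19.7% lowered.

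Ligands and counter-receptors of integrins (38 genes, 29 tested) had more lowered than raised genes against wild type, except with the circular RNA once wild type replicate 3 was left out. In 5xFAD EGFP 4 were raised and 12 lowered (13.8 and 41.4% of the list, beside 7.65 and 6.35% of all genes). With the circular RNA 4 and 9 were (13.8 and 31.0%, beside 17.8 and 8.05%), and in PKR knockout 4 and 15 (13.8 and 51.7%, beside 17.5 and 19.4%). Spp1, osteopontin, a secreted ligand of αv and α4 integrins, rose most, from 2.84 ± 0.47 FPKM (SD, n = 3) to 98.9 ± 0.96 (SD, n = 2), 140.2 ± 68.6 (SD, n = 4) and 272 ± 99.2 (SD, n = 4), or by 4.71, 5.10 and 6.09 log2 units (limma adjusted p = 5.83e-06, 2.80e-07 and 4.75e-08). Lgals3bp, a secreted glycoprotein that binds β1 integrins, rose by 2.08, 2.39 and 2.54, and Thbs1, thrombospondin, by 0.64, 0.74 and 0.93 log2 units.

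The lowered ligands named by the rule were matrix or matricellular proteins, but the list's lowered genes also included the counter-receptors Vcam1, Icam2, Jam2 and Jam3, the growth factor Tgfb2 and the bridging protein Mfge8, each called in at least 1 comparison. Whether the calls of these added genes hold when a library is left out is not given here. Vtn, vitronectin, the ligand of αvβ5, was at 23.0 ± 9.23 FPKM (SD, n = 3) in wild type and at 7.12 ± 1.62 (SD, n = 2), 12.3 ± 4.61 (SD, n = 4) and 9.75 ± 2.90 FPKM (SD, n = 4) in the 5xFAD groups, and fell by 1.497 in EGFP and 1.12 in PKR knockout (limma adjusted p = 0.0175 and 0.0142). Lama5, a laminin chain, fell by 1.28, 0.99 and 1.10, and Ccn1, a matricellular protein, by 1.29, 1.19 and 1.40 log2 units. Ccn2, of the same family as Ccn1, fell by 0.96, 0.92 and 0.84, but passed the filter only through wild type, and without the filter it was not called in EGFP (limma adjusted p = 0.0509, 0.0193 and 0.02004). With it and the other 3 ligands of a group mean below 1 FPKM left out (Col18a1, Edil3 and Icam2), the counts raised and lowered were 4 and 9, 4 and 6, and 4 and 12 of 25. The endothelial and mural sums given above were also lower in the 5xFAD groups. Vtn is itself on the mural list, and the 9 other mural markers summed to 50.7 to 110.3 FPKM in wild type and 20.5 to 43.9 FPKM in the 5xFAD groups. The part of vascular cells in these falls was not tested. Without wild type replicate 3, 10, 3 and 9 ligands were lowered and 4, 5 and 6 raised in the same order. With the circular RNA more were then raised than lowered, though both shares were near those of all genes. Of the list 34.48, 10.34 and 31.03% were lowered and 13.79, 17.24 and 20.69% raised. Over all genes 9.51, 8.81 and 19.7% were lowered and 8.96, 15.01 and 15.3% raised. Cd47, the partner in cis of β3 integrin and a ligand of Sirpa, was the 1 ligand of 29 called between the circular RNA and PKR knockout, where 6.19% of all genes were called, at 14.6 ± 0.75 and 11.1 ± 0.23 FPKM (both SD, n = 4; log2 difference 0.37, limma adjusted p = 0.0172), and the call was lost without circular RNA replicate 1 or PKR knockout replicate 1 or 2 (0.0521 to 0.0599). In EGFP the falls of Vtn, Lama5 and Ccn1 lost their calls without either EGFP library (limma adjusted p = 0.0587 to 0.238), Vtn and Ccn1 also without wild type replicate 1 (0.0542 and 0.0888), and Thbs1 lost its call without EGFP replicate 1 (0.0620). Ccn2 in EGFP was at -0.63 without EGFP replicate 2 (limma adjusted p = 0.331), and its call was lost too without wild type replicate 1 or 3 (0.104 and 0.0574) and, in PKR knockout, without wild type replicate 1 (0.0612). Without wild type replicate 3 Lama5 was not called with the circular RNA (limma adjusted p = 0.0544), nor Vtn in PKR knockout (0.0550).

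Genes that turn integrins to or from their binding state (31 genes, 24 tested) had 3 raised and 2 lowered in EGFP against wild type (12.5 and 8.33% of the list, beside 7.65 and 6.35% of all genes). With the circular RNA 8 and 2 were (33.3 and 8.33%, beside 17.8 and 8.05%), and in PKR knockout 6 and 5 (25.0 and 20.8%, beside 17.5 and 19.4%). Cytip, which restrains β2 integrin adhesion through cytohesin, rose from 0.302 ± 0.023 FPKM (SD, n = 3) to 1.22 ± 0.21 (SD, n = 2), 1.52 ± 0.17 (SD, n = 4) and 1.60 ± 0.23 (SD, n = 4), by 0.77, 0.95 and 0.99 log2 units (limma adjusted p = 0.000402, 7.70e-06 and 3.71e-06). It passed the filter only through the 5xFAD groups, and without the filter the adjusted p was 0.000974, 2.83e-05 and 1.37e-05 (limma). Tln2, a talin, which binds beta chain tails, rose by 0.39, 0.46 and 0.56 in EGFP, circular RNA and PKR knockout, and Tns3, a tensin, by 0.37, 0.47 and 0.59. Fyb, the adaptor ADAP, rose by 0.40 with the circular RNA and 0.77 in PKR knockout. Rap1a, a small GTPase that turns integrins on, was at 15.8 ± 0.84 FPKM with the circular RNA and 11.5 ± 0.61 in PKR knockout (both SD, n = 4; log2 difference 0.43, limma adjusted p = 0.00794), and was 0.33 log2 units below wild type in PKR knockout (limma adjusted p = 0.00477). Tns1 fell by 0.35 and 0.26 log2 units in EGFP and circular RNA, Rapgef2 fell by 0.31 and 0.25 in EGFP and PKR knockout, and Sipa1 fell by 0.50 with the circular RNA. In PKR knockout Fermt2 fell by 0.88 and Flna by 0.42, and Krit1, named here after its value was seen to complete the 5, fell by 0.21. Without wild type replicate 3 the counts raised and lowered were 3 and 3, 4 and 2, and 6 and 4. Of the list 12.5, 16.67 and 25% were then raised and 12.5, 8.333 and 16.67% lowered. Over all genes 8.96, 15.01 and 15.3% were raised and 9.51, 8.81 and 19.7% lowered, so the raised share with the circular RNA was then near that of all genes.

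Without that library Fermt2 in PKR knockout was at -0.48 (limma adjusted p = 0.150) and Fyb with the circular RNA at 0.20 (0.133), neither called. The Fermt2 call was also lost without wild type replicate 1 or knockout replicate 2 or 4 (limma adjusted p = 0.0610 to 0.0975), and the Fyb call without any 1 circular RNA library (0.0651 to 0.0976). In PKR knockout the calls of Flna were lost without wild type replicate 1 or 3 (limma adjusted p = 0.0708 and 0.0514), of Krit1 without wild type replicate 1 or knockout replicate 1, 2 or 4 (0.0528 to 0.122), and of Rapgef2 without wild type replicate 1 or 3 or knockout replicate 2 or 3 (0.0529 to 0.0983). In EGFP those of Tln2 and Tns3 were lost without either EGFP library (limma adjusted p = 0.0618 to 0.148), of Rapgef2 without either of them or wild type replicate 1 or 3 (0.0949 to 0.275), and of Tns1 without EGFP replicate 2 or wild type replicate 1 (0.218 and 0.0561). Tns1 with the circular RNA lost its call without circular RNA replicate 2 or wild type replicate 1 or 3 (limma adjusted p = 0.0591 to 0.0722), and Sipa1 without circular RNA replicate 1 or 4 or wild type replicate 1 or 2 (0.0624 to 0.105). The calls of Cytip and Rap1a given above, and of Fyb in PKR knockout, held whichever library was left out.

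The adhesion complex and the signalling below integrins (45 genes, 41 tested) had 4 raised and 7 lowered in EGFP (9.76 and 17.1% of the list, beside 7.65 and 6.35% of all genes). With the circular RNA 8 and 9 were (19.5 and 22.0%, beside 17.8 and 8.05%), and in PKR knockout 8 and 10 (19.5 and 24.4%, beside 17.5 and 19.4%), so the raised shares were near those of all genes. Raised genes included Tyrobp (DAP12) and Fcer1g, adaptors that carry β2 and β3 integrin signals as well as those of other receptors, and the Src family kinases Fgr and Fyn. Tyrobp went from 208 ± 60.4 FPKM (SD, n = 3) to 649 ± 74.4 (SD, n = 2), 723 ± 134 (SD, n = 4) and 674 ± 38.4 (SD, n = 4), by 1.68, 1.82 and 1.74 log2 units (limma adjusted p = 0.00109, 6.30e-05 and 7.14e-05). Fgr rose by 1.62, 1.72 and 1.84, Fcer1g by 0.94 and 0.99 with the circular RNA and in PKR knockout, and Fyn by 0.73, 0.75 and 0.78 in the 3 groups. Fgr, at 0.591 FPKM in wild type, passed the filter only through the 5xFAD groups, and without the filter its adjusted p was 0.000714, 5.90e-05 and 2.56e-05 (limma). With Fgr, Parva and Nedd9 left out for their low group means, the counts raised and lowered were 3 and 6, 7 and 8, and 7 and 8 of 38. Actn1, the actin cross-linker alpha-actinin, fell from 8.57 ± 1.24 to 3.49 ± 0.87, 3.95 ± 0.52 and 3.00 ± 0.45 FPKM, by 1.10, 0.95 and 1.26 log2 units. Lims2 fell by 1.11, 0.93 and 0.95, Kank2 by 0.91, 0.66 and 0.70, and Pdlim5 by 0.70, 0.61 and 0.90. In the same 3 comparisons 8, 6 and 8 of 10 endothelial markers and 7, 6 and 7 of the 8 mural markers tested were lowered, or 7, 1 and 6 and 5, 4 and 6 without wild type replicate 3, and their part in these falls was not tested. Parvb, a parvin that links integrins to actin, was 0.28 log2 units lower with the circular RNA than in PKR knockout (7.10 ± 0.62 and 8.84 ± 0.52 FPKM, both SD, n = 4, limma adjusted p = 0.0416). Without wild type replicate 3 the counts were 4 and 8, 6 and 11, and 9 and 12, and the rises of Fcer1g were 0.61 and 0.66 (limma adjusted p = 0.00723 and 0.00351). Of the list 9.756, 14.63 and 21.95% were then raised and 19.51, 26.83 and 29.27% lowered. Over all genes 8.96, 15.01 and 15.3% were raised and 9.51, 8.81 and 19.7% lowered. In EGFP the calls of Fyn and Lims2 were lost without either EGFP library (limma adjusted p = 0.0582 to 0.218), of Lims2 also without wild type replicate 1 or 3 (0.0655 and 0.0556), and of Kank2 without EGFP replicate 2 (0.123). Lims2 with the circular RNA lost its call without wild type replicate 3 (limma adjusted p = 0.0653), and the Parvb difference was lost without any 1 library of the 2 groups (0.0607 to 0.116) except circular RNA replicate 3.

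Genes of integrin traffic (17 genes, 11 tested) had 0 raised and 1 lowered in EGFP (0 and 9.09% of the list, beside 7.65 and 6.35% of all genes). With the circular RNA 1 and 2 were (9.09 and 18.2%, beside 17.8 and 8.05%), and in PKR knockout 0 and 4 (0 and 36.4%, beside 17.5 and 19.4%), few genes in each case. Without wild type replicate 3 these became 0 and 4, 0 and 3, and 0 and 5. The lowered shares of the list were then 36.36, 27.27 and 45.45%, beside 9.51, 8.81 and 19.7% of all genes. None of the list was raised, beside 8.96, 15.01 and 15.3% of all genes. Stab1, a scavenger receptor that cycles through endosomes and is also carried by vessel and border cells, fell from 72.3 ± 13.3 FPKM (SD, n = 3) to 33.9 ± 2.49 (SD, n = 2), 29.9 ± 4.90 (SD, n = 4) and 31.4 ± 7.002 (SD, n = 4). Numb, an endocytic adaptor, fell by 0.29 with the circular RNA and 0.37 in PKR knockout, and Rab11a, a recycling GTPase, by 0.29 in PKR knockout. Vps35, the retromer subunit, rose by 0.31 with the circular RNA, was at 0.19 without wild type replicate 3 (limma adjusted p = 0.149), and lost its call too without wild type replicate 2 or circular RNA replicate 1, 2 or 3 (0.0737 to 0.0926). The Numb call with the circular RNA was lost without wild type replicate 1 or 2 or circular RNA replicate 1, 2 or 4 (limma adjusted p = 0.0516 to 0.131), and that of Rab11a without wild type replicate 1 or 2 or knockout replicate 1, 2 or 4 (0.0868 to 0.177). Stab1 lost its call in EGFP without EGFP replicate 2 (limma adjusted p = 0.0868). The median log2 change against wild type in EGFP, circular RNA and PKR knockout was -0.312, -0.146 and -0.480 for ligands, -0.045, 0.066 and 0.015 for activation, -0.139, -0.018 and -0.042 for the adhesion complex and -0.092, 0.073 and -0.046 for traffic, beside -0.032, 0.024 and -0.051 over all genes. No gene of these 4 lists was called in the circular RNA or PKR knockout against EGFP, where 0 and 0.0832% of all genes were.

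The genes whose levels were most like each integrin over the 13 libraries, by Pearson's r of log2(FPKM + 1) among genes tested, differed between integrins. For Itgax these were Cst7 (r = 0.998) and Baiap2l2 (0.996), and after removal of group means r was 0.81 and 0.18. Itgb2 was most like C1qc and C1qa (0.990 and 0.982), chains of complement C1q, and within groups r was 0.98 and 0.97. For Itga5 they were Got1 and Eef1a1 (both 0.994), for Itgav Sort1 (0.980), for Itgb5 Plod3 and Cerk (0.976 and 0.974), and for Itgb1 Rhoa and Fam117b (0.959 and 0.955). For Itgam they were its overlapping gene Gm49368 (0.986) and Nckap1l (0.970), for Itga6 Ptprj and Dnm2 (0.940 and 0.922), for Itgal Gm50461 and Cd5 (both 0.961), and for Itga4 Fam220a and Rchy1 (0.881 and 0.868). All of these points share libraries, groups and depth, and the values are descriptions.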

How the data were processed

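The authors deposited 1 table of FPKM values for 19737 genes in 13 separate libraries. Per the submitters' processing notes, Bowtie2 2.3.5, HISAT2 2.1.0 and featureCounts 1.5.1 were used with build mm10 (GRCm38); settings are not given in the sources used here. FPKM values are relative to the library total, so abundant genes can shift others. Depth was recovered from FPKM below 0.3 and GENCODE M21 exon lengths (98.2% of genes); 91.4 to 92.9% of those values were whole fragments to within 0.02.

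Libraries were grouped by title. limma 3.58.1 (R 4.3.3) was fitted to log2(FPKM + 1) for the 10817 genes averaging 1 FPKM or more, with a mean per group (9 residual degrees of freedom), trended eBayes and Benjamini-Hochberg adjustment within each of 6 comparisons (threshold 0.05). The pseudocount understates changes of low genes. In simulations of 10817 genes, 200 of them were altered by 1 log2 unit. Recovery was 83.5% for 5xFAD EGFP against wild type and 92.5% for PKR knockout against wild type. False calls made up 5.6 and 3.6% of the calls there, and 8% for the circular RNA against PKR knockout. Recovery of smaller changes was not tested. The Itgax share was compared by exact two-sided permutation tests. Named are all 10 integrins, other subunits tested, up to 3 raised and 3 lowered genes of largest change per pathway list, the 2 genes most like each integrin and the Itgax neighbours. The integrins and lists were chosen with earlier results of these data known. Alternatives were another pseudocount, no filter, other scalings and models, and leaving out each library. Adding Gm49368 fragments, testing listed genes of low group means without the filter, list counts without wild type replicate 3, and leaving out libraries for Itgal, Itga4 and the listed genes were chosen after seeing the data. Promoters come from RefSeq (GRCm38.p6), with entries for 7 of the 10.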

Additional observations from a re-analysis of the deposited data

How the results depend on the processing

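Over 8 tested integrins in 6 comparisons, the alternatives that left out a library gave 312 values, of which 283 kept their direction and their side of the threshold, 11 lost the call and 18 reversed. The other alternatives gave 432 values, of which 371 kept both, 12 lost the call, 12 gained one and 37 reversed. The rises of Itgax and Itga5 against wild type and the fall of Itgav in PKR knockout held in all of them. Every reversed value was of a change that did not pass the main test. The cause was not tested for any value below.

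Rescaling each library to the same FPKM sum moved the median of all genes to -0.17, -0.20 and -0.24 log2 units in 5xFAD EGFP, circular RNA and PKR knockout against wild type. Under it Itgam was -0.11, -0.10 and -0.15 in these comparisons and -0.037 in PKR knockout against EGFP, and Itgb5 was -0.065 in 5xFAD EGFP against wild type. Itgb1 was -0.090 with the circular RNA and -0.21 in PKR knockout against wild type, Itga6 was -0.22 in PKR knockout against wild type and Itgav was -0.023 with the circular RNA against EGFP. After quantile normalization Itgam was -0.13, -0.14 and -0.26 against wild type in the order above, -0.13 in PKR knockout and -0.015 with the circular RNA against EGFP. Itgb5 was -0.36 in EGFP and -0.23 with the circular RNA against wild type. Itgb1 was -0.11 with the circular RNA and -0.28 in PKR knockout against wild type and -0.030 in PKR knockout against EGFP. Itga6 was -0.22 in PKR knockout against wild type and Itgav -0.0095 with the circular RNA against EGFP. Median-ratio scaling turned Itgam to -0.016 in the circular RNA against PKR knockout.

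With neural and vascular markers in the model, 3 integrins were called in PKR knockout against wild type (28.9% of all genes were) and 1 in the circular RNA against PKR knockout (10.7%). Itgam was then -0.12 in EGFP and -0.23 in PKR knockout against wild type and -0.10 in PKR knockout against EGFP, and Itgb5 was -0.034 in EGFP. Itgb1 was -0.10 and Itga6 -0.18 in PKR knockout against wild type, while Itgb2 was 0.0042 and Itga6 0.071 in the circular RNA against PKR knockout. With array weights 2 integrins (Itgax and Itgb5) were called in PKR knockout against EGFP and 3 (Itgav, Itgax and Itgb5) in the circular RNA against PKR knockout, while the calls over all genes went from 9 to 822 (7.60%) and from 670 to 3161 (29.2%). Itgam was then -0.074, -0.0031 and -0.058 in EGFP, circular RNA and PKR knockout against wild type, Itgb5 was -0.051 in EGFP, and Itgb1 and Itga6 were -0.046 and -0.077 in PKR knockout. With only the 2 groups compared in the model, 2 (Itgax and Itgb5) were called in PKR knockout against EGFP (577 of all genes, 5.33%), 2 with the circular RNA against wild type (Itgb2 and Itgav being lost; 15.9% of all genes, down from 25.8%) and 1 (Itgav) in the circular RNA against PKR knockout (8.26%). Without the filter 5 were called in 5xFAD EGFP against wild type, Itgal and Itga4 among them (10.4% of all genes). Taking Itgb2 as the total turned the Itgax share difference between the circular RNA and EGFP to -5.86 points.

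Leaving out 1 library gave ranges across 0 for Itgam (-0.13 to 0.17), Itgb5 (-0.11 to 0.23) and Itgb1 (-0.19 to 0.029) in 5xFAD EGFP against wild type, and for Itga6 (-0.12 to 0.060) with the circular RNA against wild type. The same held in PKR knockout against wild type for Itgam (-0.11 to 0.19), Itgb1 (-0.092 to 0.13) and Itga6 (-0.11 to 0.067). It held for Itgam in PKR knockout against EGFP (-0.014 to 0.073), for Itga6 in the circular RNA against PKR knockout (-0.047 to 0.039) and for the Itgax share in the circular RNA against EGFP (-0.92 to 1.29 points).

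The groups share replicate numbers in their titles, but same-numbered libraries did not deviate together in every pair (for example r = -0.42, 0.69 and -0.20 for the circular RNA and wild type), so the numbers were not taken as pairs. With the replicate block 2 integrins were called in 5xFAD EGFP, 3 with the circular RNA and 5 in PKR knockout against wild type (12.1, 24.8 and 35.8% of all genes), none in the other comparisons, with Itgav lost in EGFP (limma adjusted p = 0.0611) and with the circular RNA (0.0605), and Itga6 was 0.0033 with the circular RNA against wild type. Depth limits Itgal and Itga4 most, and 2 EGFP libraries in 5xFAD limit every comparison that uses them.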
